A study of Bos taurus and Cervus elaphus with 24 samples.

Results

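The genes followed here are 7 genes of cholesterol synthesis and its control: HMGCS1, IDI1, FDPS, SQLE, LSS, INSIG1 and SREBF2. They were chosen by name. Every probe of the Agilent bovine array whose gene name is one of these was taken, controls left out, which gave 16 of 43653 probes and 7 of 16952 named genes. The 5 enzymes and the 2 regulators make cholesterol or govern its synthesis. None of the 7 itself takes cholesterol up, and genes of uptake are described with the other genes of the pathway. The study measured blood RNA of 4 cattle of the Holstein-Friesian breed (HF), 4 of the Polish Red breed (PR) and 4 deer labelled as Cervus elaphus, with 1 sample of each animal from the dry period and another from peak lactation. This gives 6 groups of 4 arrays and 24 arrays in all, and same-numbered samples come from the same animal per the series text. HF is a dairy breed of high milk yield and PR a local Polish breed. The dry period is the rest between lactations when no milk is made. No treatment, ages or doses are given in the labels used here. On every array the animal's RNA carried the Cy5 dye and a common reference, pooled from 20 cattle outside the research groups, carried the Cy3 dye. Each level below is a log2 ratio of an animal's signal to that cattle reference, so 0 means equal to the reference, and deer RNA was read with probes designed on cattle.

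Animal cells build cholesterol from acetyl-CoA in a long chain of enzymes and also take it up from lipoproteins. HMGCS1 makes HMG-CoA, an early intermediate of that chain. IDI1 and FDPS turn isoprene units into farnesyl diphosphate, SQLE adds oxygen to squalene, and LSS closes it into the first sterol, lanosterol. SREBF2 encodes SREBP2, the transcription factor that switches these genes on when sterols in the cell are low. INSIG1 is both a target of SREBP2 and a brake on it, since it holds the SREBP2 precursor in the endoplasmic reticulum when sterols are plentiful.

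The genes are read by 60-base probes, 3 for HMGCS1, 1 for SQLE, 4 for SREBF2 and 2 for each of the others. For each gene the probe with the highest mean intensity stands for it, and the other probes are given beside it. Positions are those the array files give on the UMD 3.1 cattle assembly. The brightest HMGCS1 probe lies at chr20:31475481-31475540 on the plus strand and that of IDI1 at chr13:46685653-46685712 on the plus strand. The brightest FDPS probe lies at chr3:15366060-15366119 and that of SQLE at chr14:16723414-16723473, both on the minus strand. The brightest LSS probe lies at chr1:147623753-147623812 on the minus strand. That of INSIG1 lies at chr4:117919921-117919980 and that of SREBF2 at chr5:113414593-113414652, both on the plus strand. No gene model on that assembly was used here, so no exon or intron is assigned. Of the 16 probes 8 are printed below, whole or in part, and the others are not. Each of the 8 holds a reading frame that could be followed in the sense direction, which some of the others do too. Those of genes with several probes are shown because probes of one gene gave unlike values in deer, and the letters are what an RNA must match. SQLE has 1 probe only. The capitals mark a TGA read as the stop codon, where the printed run ends, and this reading rests on the letters alone. In each probe so marked another frame runs through the 60 bases without a stop codon. Of the probes printed below, that of HMGCS1 lies at chr20:31466385-31466444 and that of IDI1 at chr13:46685285-46685344, both on the plus strand, and that of LSS at chr1:147625737-147625796 on the minus strand. The SREBF2 probes lie at chr5:113383473-113383532 and chr5:113406404-113406463 on the plus strand. The 1st FDPS run, on the minus strand, covers 161 genomic bases with its 60 letters, at chr3:15366935-15367095, while each of the other 15 probes spans 60.
HMGCS1 A_73_P277761: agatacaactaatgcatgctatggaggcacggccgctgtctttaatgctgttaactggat
IDI1 A_73_P364656: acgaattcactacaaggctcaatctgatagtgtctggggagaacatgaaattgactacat
FDPS A_73_P275376: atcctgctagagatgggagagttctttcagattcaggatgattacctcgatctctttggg
FDPS A_73_110752: atctacaagcggaaaaagTGA
SQLE A_73_111677: acattgaggagctgcggtttgtctttTGA
LSS A_73_P048191: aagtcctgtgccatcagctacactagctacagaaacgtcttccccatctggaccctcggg
SREBF2 A_73_P371690: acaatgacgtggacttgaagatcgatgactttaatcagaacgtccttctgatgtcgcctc
SREBF2 A_73_P091831: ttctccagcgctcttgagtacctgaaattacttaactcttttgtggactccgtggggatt

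All 16 probes were well above background on all 24 arrays and none had a saturated spot. The number of arrays, 4 a group, limits the precision. On 23 arrays the median Cy5 signal was 109 to 255, and on PR dry replicate 1 it was 2038, with 703 outlier spots against at most 75 elsewhere. The spike-in controls of that array had an r2 of 0.331 and those of HF animals 2 and 3 an r2 of 0.174 to 0.401, against at least 0.899 on the other arrays. For the 7 genes, the lists of pathway genes and the cell markers, differences that lean on PR dry replicate 1 are therefore also given without it, mostly as counts and medians. The RNA is labelled as coming from peripheral blood nuclear cells, while the series text speaks of whole blood. All 8 neutrophil, 7 monocyte, 8 T cell and 6 B cell markers found on the array were above background on every array, and so were 6 of 7 natural killer cell, 5 of 5 platelet and 5 of 8 erythroid markers.

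HMGCS1, the first enzyme of the group in the pathway, had its highest group means in HF and its lowest in deer. On the HF arrays its log2 level was 0.33, 0.48, 0.34 and 0.20 in the dry period and 0.77, -0.28, 0.77 and 0.62 at peak lactation, for replicates 1 to 4 in order. On the PR arrays it was -0.98, -0.041, -0.073 and -0.18 and then 0.26, 0.30, 0.22 and 0.22. All 4 PR lactation arrays lay above all 4 PR dry arrays, and HF lactation replicate 2 lay below the other HF arrays. On the deer arrays the level was -1.34, -1.02, -0.82 and -1.18 in the dry period and -0.80, -0.41, -0.86 and -0.71 at peak lactation. The deer values of both states overlapped, and PR dry replicate 1 was the cattle array that reached down among them. By group means the order was HF lactation at 0.47 ± 0.51 (SD, n = 4 here and for every mean below), HF dry at 0.34 ± 0.11, PR lactation at 0.25 ± 0.038, PR dry at -0.32 ± 0.44, deer lactation at -0.70 ± 0.20 and deer dry at -1.09 ± 0.23. PR lactation and PR dry were the single pair of neighbours in that order whose arrays did not overlap.

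IDI1, which interconverts the isoprene building blocks, had levels near the reference in all groups. Its log2 level in HF was 0.063, 0.17, 0.006 and -0.032 in the dry period and 0.24, -0.40, 0.44 and 0.17 at peak lactation. In PR it was -0.81, -0.17, -0.14 and -0.13 and then -0.19, -0.11, 0.062 and -0.082. PR dry replicate 1 was far below the other PR arrays and HF lactation replicate 2 below the other HF arrays. In deer the level was 0.17, -0.015, 0.11 and 0.15 in the dry period and 0.36, 0.46, -0.014 and 0.56 at peak lactation. The deer lactation group had the highest mean, 0.34 ± 0.25, and PR dry the lowest, -0.31 ± 0.33, and every group overlapped its neighbours in the order.

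FDPS, the farnesyl diphosphate synthase, had a level in HF of 0.23, -0.076, 0.19 and 0.14 in the dry period and 0.33, -0.37, 0.28 and -0.025 at peak lactation. In PR its log2 level was -0.80, 0.03, -0.072 and -0.27 and then 0.007, -0.22, -0.069 and -0.42. In deer it was -0.48, -0.22, -0.20 and -0.41 and then -0.32, -0.06, -0.19 and -0.32. HF dry had the highest mean, 0.12 ± 0.14, and deer dry the lowest, -0.33 ± 0.14, with overlap between all neighbours, and PR dry replicate 1 was again the lowest array of all.

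SQLE, the squalene epoxidase, did not overlap between the breeds in the dry period. Its level on HF dry arrays was 0.43, 0.39, 0.20 and 0.18 and on PR dry arrays -0.90, -0.071, -0.28 and -0.37, with every HF array above every PR array. At peak lactation it was 0.52, -0.48, 0.67 and 0.48 in HF and -0.19, -0.30, -0.12 and -0.11 in PR. There HF replicates 1, 3 and 4 lay above all PR arrays and HF replicate 2 below all of them. In deer the level was -1.34, -0.79, -0.89 and -0.84 in the dry period and -1.07, -0.44, -1.02 and -0.50 at peak lactation, all below 0. The means ran from 0.30 ± 0.13 in HF dry and 0.30 ± 0.53 in HF lactation through -0.18 ± 0.087 and -0.40 ± 0.35 in PR to -0.76 ± 0.33 and -0.97 ± 0.25 in deer, and all neighbours overlapped.

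LSS, the lanosterol synthase, was the most even of the genes within HF dry, at 0.42, 0.36, 0.36 and 0.36. On the HF lactation arrays its level was 0.57, -0.27, 0.35 and 0.50. In PR it was -0.16, 0.062, -0.094 and -0.03 in the dry period and -0.027, -0.044, -0.32 and -0.16 at peak lactation. Every HF dry array lay above every PR dry array, and at peak lactation HF replicate 2 fell among the PR arrays. In deer the level was -1.27, -1.27, -0.84 and -1.68 and then -1.27, -0.39, -0.995 and -1.10. No deer array reached a cattle array, and PR lactation and deer lactation were the single pair of neighbouring groups that did not overlap.

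INSIG1, the brake on SREBP2, had levels in HF of 0.34, 0.17, 0.20 and -0.11 in the dry period and 0.46, -0.22, 0.65 and 0.57 at peak lactation. In PR its log2 level was -0.96, 0.074, -0.048 and -0.23 and then 0.038, 0.14, -0.074 and -0.06. In deer it was -0.51, -0.10, 0.34 and 0.08 and then 0.001, 0.13, 0.36 and 0.38. The groups overlapped throughout, from 0.36 ± 0.40 in HF lactation to -0.29 ± 0.46 in PR dry, and deer lay among the cattle, not below them.

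SREBF2, the regulator, had its highest cattle mean in PR dry, where the means of the other 6 genes were all below 0. Its level was -0.011, -0.40, -0.26 and 0.17 in HF dry and -0.064, -0.40, -0.67 and -0.13 in HF lactation. It was 0.33, -0.05, 0.34 and 0.33 in PR dry and -0.25, 0.05, 0.14 and 0.026 in PR lactation. PR dry had the highest mean, 0.24 ± 0.19, where replicate 2 lay apart below the other 3 arrays, and HF lactation had the lowest, -0.32 ± 0.28. In deer the level was 0.061, 0.02, -0.096 and 0.07 and then -0.21, 0.22, -0.17 and 0.091, close to the reference in both states, and all neighbouring groups overlapped. The probe behind these values holds 66.7% G and C, which 0.582% of all probes reach, and 0.761% of probes were brighter, with a Cy5 signal of 33735 to 83111. Its mean log2 intensity was 15.06, against 11.62, 7.69 and 6.60 for the other 3 SREBF2 probes.

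**Figure D1:**
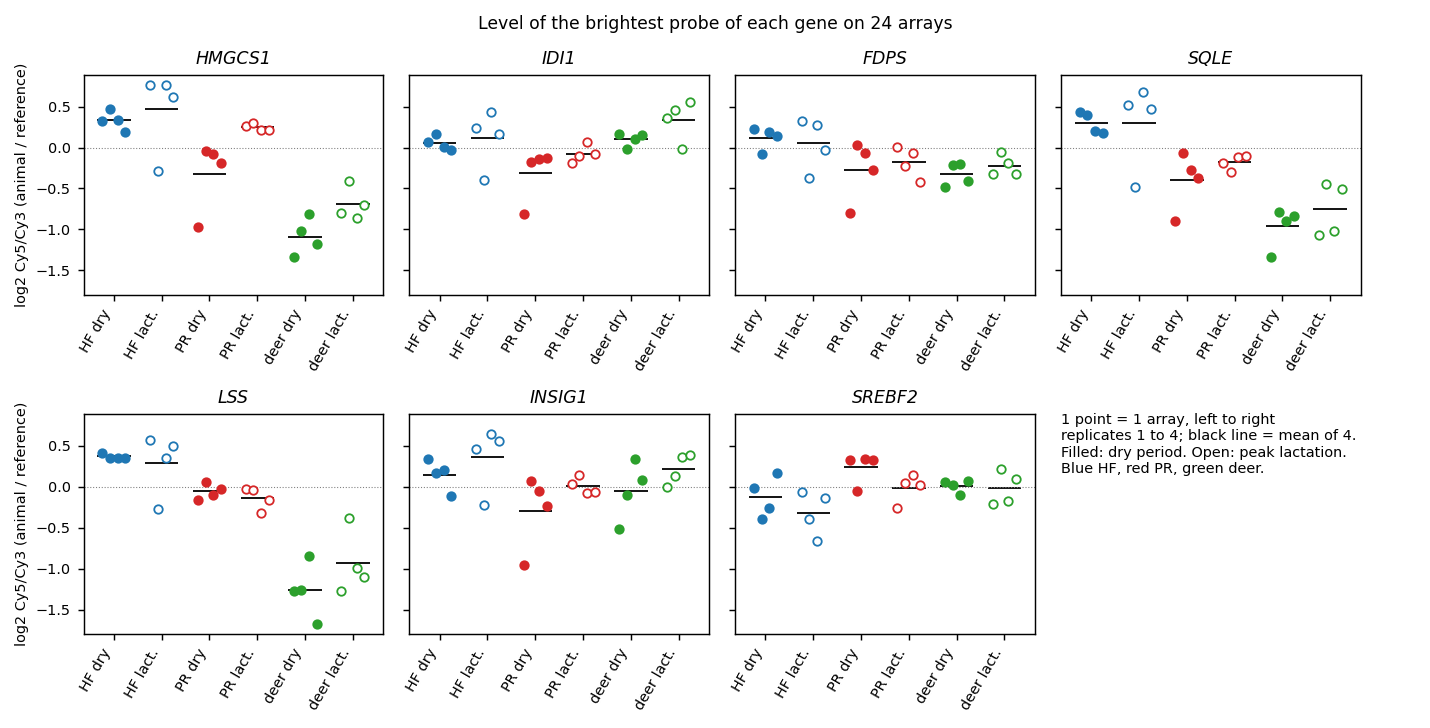
Log2 Cy5/Cy3 level of the brightest probe of each of the 7 genes on the 24 arrays, with 1 point for each array, filled in the dry period and open at peak lactation, and a line at the mean of the 4 arrays of a group. HMGCS1, SQLE and LSS step down from HF (blue) through PR (red) to deer (green). PR dry replicate 1, the first filled red point, lies lowest of the PR arrays for HMGCS1, SQLE, INSIG1, FDPS and IDI1.

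In the dry period the 5 enzymes and INSIG1 were higher in HF than in PR by the estimates and SREBF2 lower, but no difference passed the adjusted threshold of 0.05 in limma. SQLE differed by 0.70 (SE 0.21, adjusted p = 0.0632), HMGCS1 by 0.65 (SE 0.20, adjusted p = 0.0722) and INSIG1 by 0.44 (SE 0.21, adjusted p = 0.213) on the log2 scale. LSS differed by 0.43 (SE 0.18, adjusted p = 0.166), FDPS by 0.40 (SE 0.16, adjusted p = 0.141) and IDI1 by 0.37 (SE 0.16, adjusted p = 0.173). SREBF2 differed by -0.36 (SE 0.14, adjusted p = 0.129). For scale, the SQLE value is a 1.63-fold and the HMGCS1 value a 1.57-fold higher level. All 7 had an unadjusted p under 0.05, against 22.4% of the 32926 probes tested in this comparison, of which 3.15% passed after adjustment. The arrays of both breeds did not overlap for 4 of the 7, HMGCS1, SQLE, IDI1 and LSS, against 8.91% of probes. The median difference of the 7 was 0.43, against 0.0096 over all probes tested.

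Without PR dry replicate 1 the estimates of 6 of the 7 genes were above 0, with a median of 0.23 in place of 0.43. SQLE then differed by 0.54 (adjusted p = 0.174), HMGCS1 by 0.44 (adjusted p = 0.203), LSS by 0.39 and SREBF2 by -0.33, while FDPS differed by 0.23, INSIG1 by 0.22 and IDI1 by 0.20. Among the 8232 brightest of the tested probes, where 4 of the 7 genes lie, the median difference was 0.18 with that array and -0.00078 without it. Without PR dry replicate 2, in turn, 4 of the 7 passed, and without HF lactation replicate 2, which enters only the shared estimate of spread, 2 passed. HF dry replicate 4 and PR dry replicate 2 shared a slide, the 1 slide that held dry arrays of both breeds. Within it HF was higher for HMGCS1 by 0.24, SQLE by 0.25, FDPS by 0.11, IDI1 by 0.14, LSS by 0.30 and SREBF2 by 0.22, and lower for INSIG1, at -0.19. With slide as a fixed block all 7 estimates were above 0, with a median of 0.21 and SREBF2 turned to 0.16, and none passed. Centring arrays on their median in place of loess moved the median of all probes to 0.15, that of the 8232 brightest to 0.59 and that of the 7 to 0.79. With it 6 of the 7 passed and SREBF2 turned to 0.21. The shares of all probes that passed under these other settings are not given here, so their counts stand without that scale.

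The other probes of the same genes gave differences smaller in size. None of the 9 had an unadjusted p under 0.05, and their median was -0.015. For HMGCS1 the other probes differed by 0.13 (adjusted p = 0.756) and -0.0044 (adjusted p = 0.99), for FDPS by 0.15 (adjusted p = 0.601), for IDI1 by -0.11 (adjusted p = 0.736), for LSS by 0.0029 (adjusted p = 0.988) and for INSIG1 by -0.096 (adjusted p = 0.484). For SREBF2 they differed by -0.057 (adjusted p = 0.903), -0.015 (adjusted p = 0.941) and -0.16 (adjusted p = 0.591). Each of the 9 was dimmer than the probe that stands for its gene.

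At peak lactation, by their brightest probes, the same 6 genes again had higher estimates in HF and SREBF2 a lower one. The median was 0.23 against 0.0062 over all probes tested. None passed. SQLE differed by 0.47 (SE 0.21, adjusted p = 0.293), LSS by 0.43 (SE 0.18, adjusted p = 0.272) and SREBF2 by -0.31 (SE 0.14, adjusted p = 0.308), and these 3 of 7 had an unadjusted p under 0.05, against 14.9% of 32950 probes, of which 0.0121% passed. INSIG1 differed by 0.35 (SE 0.21, adjusted p = 0.439), FDPS by 0.23 (SE 0.16, adjusted p = 0.529), HMGCS1 by 0.22 (SE 0.20, adjusted p = 0.669) and IDI1 by 0.19 (SE 0.16, adjusted p = 0.617). Of the 9 other probes of the genes 4 had a higher estimate in HF, with a median of -0.038. None of these 9 had an unadjusted p under 0.05 in limma. Without HF lactation replicate 2, the array on which all 7 genes lay below the reference, the median was 0.47 and SQLE differed by 0.73 (adjusted p = 0.126). No slide held lactation arrays of both breeds. With slide as a fixed block, where these 2 groups are linked only through the dry arrays, HMGCS1 turned to -0.13, FDPS to -0.21, INSIG1 to -0.16 and SREBF2 to 0.33.

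**Figure D2:**
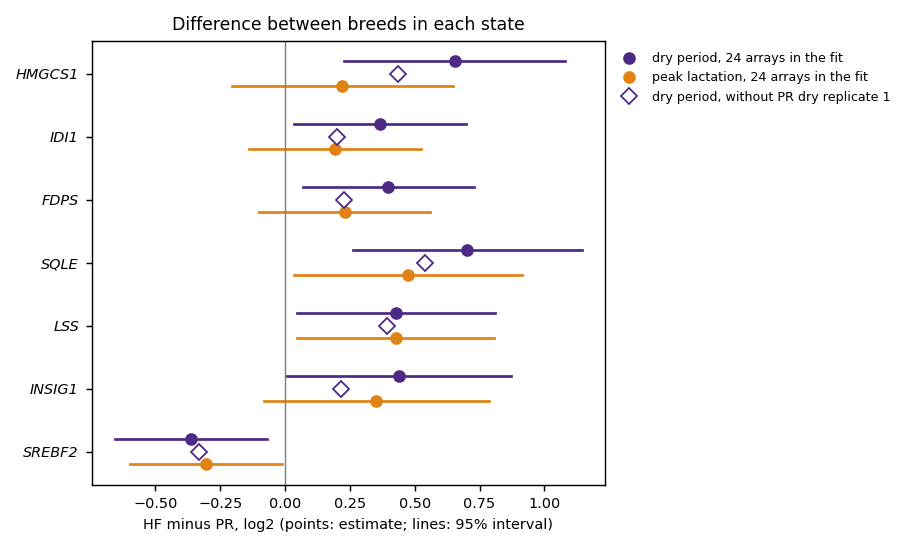
HF minus PR difference of each gene's brightest probe in log2 units (horizontal axis), in the dry period (purple) and at peak lactation (orange), with the 95% interval from limma, and open diamonds for the dry period without PR dry replicate 1. The estimates of 6 genes lie right of 0 in both states and that of SREBF2 left of it, and the diamonds lie nearer to 0 than the full estimates.

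A comparison of the breeds over both states, with animal as a random block, was added after seeing the data. In it SQLE was higher in HF by 0.59 (adjusted p = 0.0225), LSS by 0.43 (adjusted p = 0.0455), and SREBF2 was lower at -0.34 (adjusted p = 0.0407) by limma. HMGCS1 differed by 0.44 (adjusted p = 0.0666), INSIG1 by 0.40, FDPS by 0.31 and IDI1 by 0.28, and these 4 did not pass. That is 3 of 7 genes, where 10.2% of 33480 probes passed. The calls moved with single arrays. When each of the 24 arrays was left out in turn, SQLE passed in 23 fits, SREBF2 in 14 and LSS in 8. SQLE alone passed without HF dry replicate 2 or 3, HF lactation replicate 3, PR dry replicate 1, 3 or 4, or PR lactation replicate 3 or 4, and without PR lactation replicate 2 none did, with SQLE at an adjusted p of 0.0506. LSS was 0.41 (adjusted p = 0.0609) and SREBF2 -0.32 (adjusted p = 0.0554) without PR dry replicate 1. Without HF lactation replicate 2, in turn, 6 of the 7 passed and SREBF2 did not, and 6 passed without PR dry replicate 2. With slide as a fixed block none passed, SQLE stood at 0.23 and LSS at 0.38, and SREBF2 turned to 0.25, FDPS to -0.094 and INSIG1 to -0.071. With median centring 6 passed and SREBF2 turned to 0.055, and with the Cy5 channel alone none passed. The other probes of the genes differed by -0.17 to 0.18 and none of them passed.

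Most other enzymes of the pathway had higher estimates in HF in the dry period, and none passed. Of 17 further cholesterol synthesis genes 14 had a higher estimate in HF, with a median of 0.28. In limma 7 of the 17 had an unadjusted p under 0.05, against 22.4% of all probes tested. Without PR dry replicate 1 the estimate was higher for 13, 5 had an unadjusted p under 0.05 and the median was 0.11. The highest were MSMO1, which removes methyl groups from lanosterol's products, at 0.81 and CYP51A1, the lanosterol demethylase, at 0.71. The lowest were LBR, a sterol reductase of the nuclear membrane, at -0.38 and MVD, the mevalonate diphosphate decarboxylase, at -0.23. Among 10 other genes of SREBP control 7 were higher by the estimate, led by MBTPS1, the protease that makes the first cut in SREBPs, at 0.60 and ERLIN2 at 0.38, while SREBF1 stood at -0.32 and INSIG2 at -0.095. The median of these 10 was 0.20, and 0.12 without PR dry replicate 1, with 6 higher. Of 13 uptake, transport and storage genes tested 9 were higher, with MYLIP, a ubiquitin ligase, at 0.37 among the highest, and VLDLR at -0.20 and MSR1 at -0.12 lowest. Their median of 0.093 became 0.021 without PR dry replicate 1, with 7 of 13 higher. At peak lactation LIPA, the lysosomal acid lipase, differed by 0.51 (adjusted p = 0.0915). There 11 of 12 uptake genes, 9 of 10 SREBP control genes and 11 of 17 synthesis genes had higher estimates in HF, with HSD17B7 at 0.44 and TM7SF2 at 0.39 highest and LBR at -0.29 lowest of the synthesis genes. No gene of the 3 lists passed in either state.

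Blood is a mixture, and in such bulk samples fewer cells of a type and less RNA per cell cannot be told apart. In the dry period 5 of 6 B cell markers had a higher estimate in HF, with a median of 0.40, and 5 of 6 erythroid markers tested a lower one, with a median of -0.50. T cell markers were higher for 8 of 8, with a median of 0.15, and natural killer cell markers for 6 of 7, with a median of 0.17. Monocyte markers were higher for 5 of 7, neutrophil markers for 3 of 8 and platelet markers for 2 of 5. All these counts include PR dry replicate 1. Without PR dry replicate 1, which had the lowest mean level of the B cell markers in its group, 4 of 6 B cell markers were higher with a median of 0.13, and the erythroid median was -0.41. Summed Cy5 signals, here and below, are not normalized, and those of PR dry include replicate 1. For the B cell markers the sum was 32702 to 53512 in HF dry and 19434 to 38005 in PR dry, where replicate 1 gave the 38005. For the erythroid markers it was 121516 to 623908 and 115899 to 598588. At peak lactation 8 of 8 neutrophil markers were higher in HF by the estimate, with a median of 0.62, and 6 of 7 monocyte markers, with a median of 0.35. Without HF lactation replicate 2 these medians were 0.43 and 0.082. With all arrays, natural killer cell markers were lower in HF for 7 of 7, with a median of -0.14, and B cell markers for 5 of 6, with a median of -0.10. T cell markers were higher for 5 of 8, erythroid markers for 4 of 6 and platelet markers for 2 of 5. The summed neutrophil signal was 111156 to 354687 in HF lactation and 69740 to 167432 in PR lactation, and the summed monocyte signal 90658 to 256140 and 66359 to 126056. No marker passed in either comparison, and their part in the differences of the 7 genes was not tested.

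Between the states, HF cattle showed no difference in these genes that passed. HMGCS1 was higher at peak lactation by 0.13 (SE 0.20, adjusted p = 0.964) on the log2 scale by the estimate and INSIG1 by 0.21 (SE 0.21, adjusted p = 0.912), while SREBF2 differed by -0.19 (SE 0.14, adjusted p = 0.837). The estimates of IDI1, FDPS, SQLE and LSS were 0.059, -0.067, -0.0044 and -0.083. No gene had an unadjusted p under 0.05, against 8.11% of 33103 probes, and 0.00906% of probes passed. HF animal 2 was lower at peak lactation for 7 of 7 genes, with a median within-animal difference of -0.57. HF animal 1 was higher for 6 of 7, and animals 3 and 4 for 5 of 7 each. Without HF lactation replicate 2 the estimates of 6 of 7 genes were above 0, with a median of 0.23 in place of -0.0044, HMGCS1 at 0.38 and INSIG1 at 0.41, and none passed. In HF neutrophil markers were higher at peak lactation for 8 of 8, with a median of 1.07 and none passing, and their summed Cy5 signal was 93206 to 158917 in the dry period and 111156 to 354687 at peak lactation. In the same comparison 7 of 7 monocyte markers were higher, with a median of 0.62, while 6 of 6 B cell markers and 7 of 7 natural killer cell markers were lower, with medians of -0.46 and -0.45, none passing. The summed monocyte signal was 91662 to 156290 in HF dry and 90658 to 256140 in HF lactation. With the processed ratio of the scanner software INSIG1 turned to -0.12.

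In PR the first enzyme of the group had the largest difference between states of the 7. HMGCS1 was higher at peak lactation by 0.57 (SE 0.20, adjusted p = 0.797), with an unadjusted p of 0.0107, a higher level in 4 of 4 animals and no overlap between the arrays. It was 1 of 7 genes in both respects, where 6% of 32592 probes had an unadjusted p under 0.05 and 2.1% did not overlap, and 0% of probes passed after adjustment. The other 2 HMGCS1 probes differed by 0.12 (adjusted p = 0.953) and 0.082 (adjusted p = 0.953), each with a higher level in 2 of 4 animals and with overlap between the states. INSIG1 differed by 0.30 (SE 0.21, adjusted p = 0.828), IDI1 by 0.23 (SE 0.16, adjusted p = 0.823), SQLE by 0.23 (SE 0.21, adjusted p = 0.878) and FDPS by 0.10 (SE 0.16, adjusted p = 0.949). SREBF2 differed by -0.25 (SE 0.14, adjusted p = 0.803), turned to 0.073 with median centring, and LSS by -0.082 (SE 0.18, adjusted p = 0.97). The median of the 7 was 0.23, that of the 8148 brightest probes 0.18 and that of all probes 0.022. Without PR dry replicate 1 the 3 medians became 0.062, -0.0012 and -0.0053, and HMGCS1 differed by 0.35. The median within-animal difference was 0.71 in PR animal 1 and 0.062, 0.0030 and 0.050 in animals 2, 3 and 4. Slides that held PR arrays of both states gave HMGCS1 differences of 1.24, 0.37 and 0.40. Neutrophil markers were higher for 8 of 8 with a median of 0.58, none passing, at a summed signal of 57695 to 112474 in the dry period and 69740 to 167432 at peak lactation. Monocyte markers were higher for 6 of 7, with a median of 0.53, 4 at an unadjusted p under 0.05 and none passing, at a summed signal of 51122 to 103187 and then 66359 to 126056. The neutrophil median was 0.35, with 7 of 8 higher, and the monocyte median 0.28 when PR dry replicate 1 was left out. The part of these cells in the values of the 7 genes was not tested in either breed.

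The mean of both breeds gave HMGCS1 as higher at peak lactation by 0.35 (SE 0.14, adjusted p = 0.425) and SREBF2 at -0.22 (SE 0.099, adjusted p = 0.49). These 2 of 7 genes had an unadjusted p under 0.05, against 9.57% of 33480 probes, and 0.00299% of probes passed. The median of the 7 was 0.11, and 0.029 without PR dry replicate 1. The lactation differences of HF and PR did not differ past the threshold for any gene, the furthest apart being HMGCS1, by -0.43 (SE 0.29, adjusted p = 0.996), which became 0.036 without PR dry replicate 1 and HF lactation replicate 2. No gene had an unadjusted p under 0.05 there, against 3.23% of probes, and 0% passed.

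**Figure D3:**
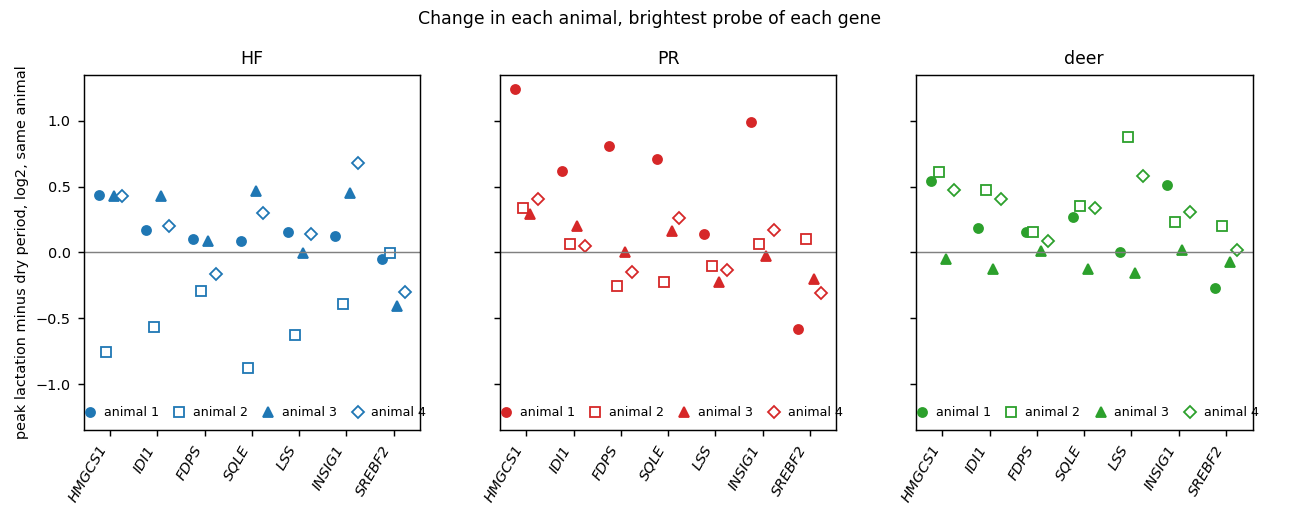
Peak lactation minus dry period in log2 units for each animal and gene, with 1 symbol for each of the 4 animals of HF, PR and deer. HF animal 2 lies below 0 in all 7 genes, PR animal 1 lies highest of its breed for 6 genes and lowest for SREBF2, and the other PR animals lie between -0.305 and 0.403.

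Of the other synthesis genes 15 of 17 had a higher estimate at peak lactation in PR, with a median of 0.15, and 12 of 17 in HF, with a median of 0.041. The PR count was 13 of 17 and the median 0.052 without PR dry replicate 1. MSMO1 at 0.65 and CYP51A1 at 0.54 were highest in PR and TM7SF2 at -0.34 and FDFT1 at -0.023 lowest. In HF ACAT2 at 0.22 and FDFT1 at 0.19 were highest, and NSDHL at -0.051 was among the lowest. Of the uptake and storage genes VLDLR, a lipoprotein receptor, at 1.13 (adjusted p = 0.268) and SCARB1, the receptor for high-density lipoprotein, at 0.77 were highest in HF and OSBP at -0.10 lowest. In PR SCARB1 stood at 0.73 and SOAT1, which stores cholesterol as ester, at 0.64, with STARD3 at -0.19 and LRP8 at -0.070 lowest. Among SREBP control genes the highest were INSIG2 at 0.23 and SREBF1 at 0.19 in HF and RNF139 at 0.25 and MBTPS1 at 0.22 in PR. The lowest were SCAP, the escort protein of SREBPs, at -0.58 and MBTPS1 at -0.15 in HF, and SCAP at -0.22 and SREBF1 at -0.21 in PR. No gene of the lists passed in either breed.

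In deer 6 of the 7 genes had higher estimates at peak lactation and none passed. HMGCS1 differed by 0.39 (SE 0.20, adjusted p = 0.553), LSS by 0.33 (SE 0.18, adjusted p = 0.58), INSIG1 by 0.27 (SE 0.21, adjusted p = 0.699) and IDI1 by 0.24 (SE 0.16, adjusted p = 0.65). SQLE differed by 0.21 (SE 0.21, adjusted p = 0.778), FDPS by 0.10 (SE 0.16, adjusted p = 0.867) and SREBF2 by -0.030 (SE 0.14, adjusted p = 0.964). The median of the 7 was 0.24, against 0.0096 over all probes. No gene had an unadjusted p under 0.05 by its brightest probe, against 9.56% of 33391 probes, and 0.00599% passed. INSIG1 and FDPS were higher in 4 of 4 animals by their brightest probes, FDPS by only 0.008 in deer 3. The 2nd FDPS probe, at an estimate of 0.057, was higher in 1 of 4 animals, and the 2nd INSIG1 probe in 4 of 4. Deer 2 and 4 were higher for 7 of 7 genes, deer 1 for 6 and deer 3 for 2. The other 2 HMGCS1 probes differed by 0.42 and 0.24, in the same direction as the brightest. Slide 10 held deer arrays of both states, and within it HMGCS1 differed by 0.062, IDI1 by 0.35 and LSS by -0.34. With slide as a fixed block INSIG1 turned to -0.15 and LSS to -0.34. Leaving out deer lactation replicates 2 and 4 lowered the median of the 7 to 0.071. The deer differences minus the mean cattle differences were above 0 for 7 of 7 genes, from 0.0089 for INSIG1 to 0.41 (SE 0.22, adjusted p = 0.614) for LSS, with none passing. Their count was 4 of 7 without HF lactation replicate 2, and LSS turned to -0.29 with slide as a fixed block. No gene had an unadjusted p under 0.05 there, against 8.86% of 35433 probes, and 0% passed.

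Among other synthesis genes 14 of 16 tested in deer had a higher estimate at peak lactation, with DHCR7, the last reductase of the pathway, at 0.67 and the isomerase EBP at 0.50 highest and LBR at -0.26 lowest. In the SREBP control list 7 of 10 were higher, with SCAP at 0.41 and ERLIN2 at 0.35 highest and ERLIN1 at -0.031 among the lowest. Of 14 uptake and storage genes 8 were higher, with SOAT1 and VLDLR both at 0.64 highest and SCARB1 at -0.54 and OSBP at -0.13 lowest. None passed. Neutrophil markers were lower at peak lactation for 7 of 8 in deer, with a median of -0.50 and a summed signal of 109366 to 200718 in the dry period and 71193 to 136544 at peak lactation. Erythroid markers were lower for 5 of 6, with a median of -0.62 and none passing. Their summed signal was 83653 to 342683 in the dry period and 48262 to 60792 at peak lactation. Their mean log2 level per array overlapped between the states, at -1.24 to -0.16 and -1.55 to -0.99. The part of these cells in the values was not tested.

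Over both states, deer blood gave lower values than cattle blood for HMGCS1, SQLE and LSS and a higher one for IDI1. LSS was lower at -1.22 (SE 0.11, adjusted p = 3.59e-09), a 2.32-fold difference. HMGCS1 was lower at -1.08 (SE 0.12, adjusted p = 1.27e-07), a 2.11-fold difference, and SQLE at -0.87 (SE 0.13, adjusted p = 4.38e-06). The Cy5 signal of that LSS probe was 71.2 to 181 in deer dry and 74.2 to 154.2 in deer lactation. The dim 2nd LSS probe gave 80.7 to 132.9 and 97.1 to 106.2 there, so the deer LSS signal lay as low as that of a dim probe. IDI1 was higher by 0.28 (SE 0.096, adjusted p = 0.0149), and missed the threshold without deer lactation replicates 2 and 4, at an adjusted p of 0.127, and with array position as a factor, at 0.0758. The processing moved the size of these differences by over 1.5 times. LSS ran from -2.22 with the processed ratio of the scanner software to -0.60 with the mean of its probes, SQLE was -0.47 and IDI1 0.64 with median centring, and HMGCS1 ran from -1.20 to -0.74. LSS, SQLE and HMGCS1 passed as lower under all 40 alternatives run on them. Some of these could hardly change the result, such as scaling intensities between arrays by quantiles, so the count does not measure robustness. FDPS differed by -0.20 (SE 0.096, adjusted p = 0.0697), INSIG1 by 0.028 (SE 0.13, adjusted p = 0.86) and SREBF2 by 0.052 (SE 0.085, adjusted p = 0.615), and these did not pass. Without PR dry replicate 1 FDPS passed, at -0.25 (adjusted p = 0.0104). With median centring, which moved the median of all probes to 0.18, FDPS turned to 0.25 and did not pass and SREBF2 passed at 0.74. With the mean of a gene's probes FDPS turned to 0.074 and SREBF2 to -0.50. Of the 7 genes 4 passed, 1 higher and 3 lower, where 64.5% of 35433 probes passed, 30.7% higher and 33.7% lower in deer. Deer and cattle arrays shared no slide, so a fit with slide as a fixed block could not be run for this comparison. Species, slide and the match of deer RNA to probes designed on cattle cannot be told apart in this design.

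Probes of one gene gave unlike values in this comparison. All 3 HMGCS1 probes were lower in deer, the other 2 at -1.09 (adjusted p = 7.41e-08) and -0.37 (adjusted p = 0.00044). The 1st of these 2 had a Cy5 signal of 69.3 to 80 in deer dry and 69 to 80 in deer lactation. Both IDI1 probes were higher, the 2nd by 0.66 (adjusted p = 3.04e-06), with no overlap between deer and cattle arrays. For LSS the brightest probe was lower without overlap while the one printed above differed by 0.013 (adjusted p = 0.821), at a mean log2 intensity of 6.48. For FDPS the probe printed in full was higher by 0.35 (adjusted p = 0.00252), against the estimate of -0.20 for the brightest. For SREBF2 the 3 dimmer probes were lower at -1.18 (adjusted p = 2.72e-08), -0.74 (adjusted p = 7.8e-07) and -0.14 (adjusted p = 0.0166), while the brightest stayed near 0. Both INSIG1 probes were near 0, at 0.028 and 0.0018, the 2nd at a mean log2 intensity of 6.33. Over all 16 probes 11 passed, 3 higher and 8 lower.

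**Figure D4:**
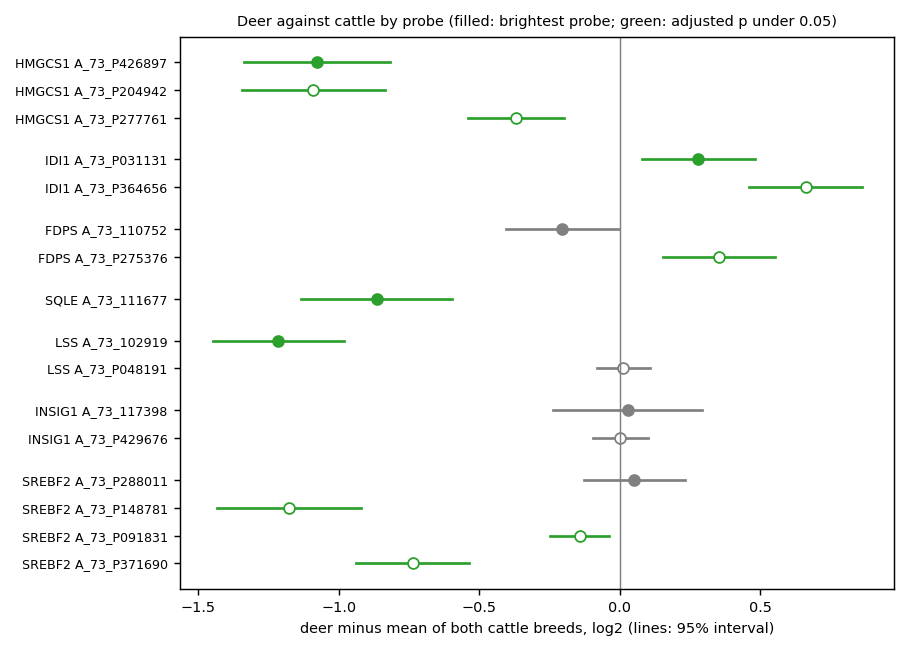
Deer minus mean cattle difference in log2 units (horizontal axis) for each of the 16 probes, grouped by gene, with filled points for the brightest probe of a gene, 95% intervals from limma, and green where the adjusted p was under 0.05. HMGCS1 and IDI1 probes fall on one side of 0 each, while FDPS, LSS and SREBF2 have probes that differ from one another.

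The counts in this paragraph stand beside 33.7% of all probes tested that passed as lower in deer and 30.7% as higher. Other synthesis genes were lower in deer in 14 of 17 cases and higher in 2 past the threshold, with a median of -0.67. DHCR7 at -3.52, EBP at -3.23, NSDHL, a sterol dehydrogenase, at -1.97, the squalene synthase FDFT1 at -1.95 and the mevalonate kinase MVK at -1.78 were the 5 with the smallest p. In the SREBP control list 2 of 10 were higher and 4 lower, with, among those of smallest p, ERLIN2 at -1.66, SCAP at -1.75, MBTPS2 at -0.31 and ERLIN1 at 0.19. Of 14 uptake and storage genes 6 were higher and 5 lower, with SOAT1 at -2.57, LIPA at -1.47, STARD3 at 1.22, VLDLR at -1.69 and LRP8 at 0.63. Erythroid markers passed as lower for 5 of 7 and monocyte markers as higher for 4 of 7 and lower for 2. The summed erythroid signal was 48262 to 342683 in deer and 59676 to 688033 in cattle, and the summed monocyte signal 24167 to 40823 in deer and 51122 to 256140 in cattle. The part of these cells in the result was not tested.

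Over the cattle arrays, both breeds and states pooled, the brightest probes of the genes other than SREBF2 varied together. Over the 16 cattle arrays Spearman's rho between pairs of these 6 genes ran from 0.62 to 0.92, with a median of 0.76, and the median was 0.74 over the 15 arrays without PR dry replicate 1. Over the 8 deer arrays the median was 0.48. SREBF2 had a rho of -0.59 to -0.33 with each of the 6 over the cattle arrays. These points share the reference, the dye and the loess fit of each array, so they describe the arrays and are given with no p. Each animal enters with both of its arrays, and differences between breeds or states enter the rho too. HF lactation replicate 2, with 0 of 7 genes above the reference, was kept. A typical rho between other pairs of genes is not given here. Between probes of one gene rho was 0.89 for FDPS, 0.34 to 0.71 for HMGCS1, 0.30 to 0.73 for SREBF2, 0.23 for INSIG1, 0.097 for IDI1 and 0.079 for LSS.

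The 2 most similar genes to each were taken from 12243 other named genes by their rho over the same 16 arrays. MSMO1 was the most similar gene to HMGCS1, at 0.93, to SQLE, at 0.91, and to INSIG1, at 0.87. YTHDF3, at 0.92, followed for HMGCS1, MRPL15, at 0.91, for SQLE and SC5D, at 0.87, for INSIG1. For IDI1 they were BCCIP at 0.94 and CYP51A1 at 0.93. For FDPS they were BOLA-DQB1 and AMIGO2, both at 0.86, and for LSS ACIN1 at 0.89 and NUP153 at 0.88. For SREBF2 they were RUVBL2 at 0.99 and RASA4 at 0.99, whose probes had mean log2 intensities of 14.83 and 15.43, near the 15.06 of the SREBF2 probe itself.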

How the data were processed

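Blood RNA of 24 samples was hybridised to 2-colour Agilent bovine arrays, with the animal in Cy5 and a pooled reference in Cy3, with no dye swap, per the labels. The deposited scanner files hold spot intensities from Agilent Feature Extraction 10.10.1.1, per the file headers (10.7.3.1 per the submitters' processing notes), yes or no calls per spot, and a log10 ratio of processed Cy5 over Cy3, per the file headers. The deposited log2 tables of 437, 158 and 576 probes, made by the authors with GeneSpring and one-way analysis of variance per the series text, hold 0 probes of the 7 genes.

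Mean signals were background-corrected with normexp (offset 50) and loess-normalized within arrays in limma 3.58.1 (R 4.3.3, statmod 1.5.0), with 1417 control spots at weight 0. Log2 Cy5/Cy3 was fitted as 6 group means. A comparison took in the probes whose Cy5 signal stood above background on 3 or more arrays in a group it used, and p-values were Benjamini-Hochberg adjusted over all such probes. "Passed" means a limma adjusted p under 0.05, and every printed adjusted p comes from limma. Each gene is read at its probe of highest mean intensity. Genes of the lists were named as those that passed, at most 5 by smallest p, and otherwise as the 2 highest and 2 lowest. The 7 genes and all lists were chosen with earlier results of these data known. LRP1 and STARD4 were not analysed here, and some genes the rule would name are not reported here.

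Same-numbered samples are the same animal per the series text, and the correlation of their deviations was above 0.1 for each of the 4 HF cattle, each of the 4 deer and 2 PR cattle. Data were simulated for HF minus PR in the dry period (42721 probes). Of probes changed by 1 log2 unit 87 of 100 were called, and of those changed by 0.5, 44 of 100, with 3 false calls. The simulated noise was independent between probes and arrays, without slide or array effects, so these counts need not hold for the real arrays. Alternatives covered the background correction, normalization, channel, dim-probe filter, animal and slide blocks, array position, samples in the fit, array weights, probe of a gene, test and each array left out. Figures were drawn with matplotlib 3.10.9.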

Additional observations from a re-analysis of the deposited data

Results flagged for a closer look

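Dixon's test for 1 array apart from the other 3 of its group was run on each probe and group, 96 in all, and marked 5, where chance marks about 1 in 20. They were HMGCS1 on HF lactation replicate 2, at a log2 level of -0.281, and on PR dry replicate 1, at -0.977. IDI1 on PR dry replicate 1 stood apart at -0.813. SREBF2 on PR dry replicate 2 stood apart at -0.05, below the other 3 arrays, and LSS on HF dry replicate 1 at 0.416, above the other 3 arrays.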

How the results depend on the processing

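Gene values of the 9 planned comparisons were recomputed under the alternatives, 2751 in all. Of these, 2702 kept their side of the threshold and their direction, apart from 122 sign changes of differences smaller than their standard error. Another 29 came to pass, 2 ceased to pass and 18 changed sign. Part of this count was fixed in advance, so it does not measure robustness. Leaving out an array outside the groups compared, or scaling intensities between arrays by quantiles, left the estimates as they were. In the dry period 0 of the 7 genes passed for HF minus PR, against 6 with median centring, 2 with array weights, 1 without background subtraction, 1 with array position as a factor and 0 to 4 when 1 array was left out (2 without HF lactation replicate 2, 4 without PR dry replicate 2). The shares of all probes that passed under the alternatives are not given here, so the counts of genes stand without that scale. At peak lactation 1 passed without PR dry replicate 1 and HF lactation replicate 2, a choice made after seeing the data. For deer peak lactation minus dry 4 passed with array weights, whose estimation did not converge. With one-way analysis of variance and Tukey's comparison 0 of the 7 passed in each of the 5 comparisons of 2 groups, before or after adjustment. For deer minus cattle 3 to 5 of the 7 passed. With animal as a random replicate block the counts of genes passing in the planned comparisons were unchanged: 0 between states, 0 between breeds in each state and 4 for deer minus cattle. As a fixed block it could be run for the comparisons of states, again with 0. For HF minus PR over both states, added after seeing the data, 3 passed with the replicate block and 4 without it, 6 with median centring, 1 with the processed ratio, 0 with the Cy5 channel alone, 0 with slide as a fixed block, 6 without PR dry replicate 1 and HF lactation replicate 2, and 0 to 6 when 1 array was left out.

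With slide as a fixed block these values changed sign: for HF minus PR at peak lactation FDPS -0.213, HMGCS1 -0.127, INSIG1 -0.16 and SREBF2 0.333, in the dry period SREBF2 0.162, over both states FDPS -0.0935, INSIG1 -0.0709 and SREBF2 0.252, for deer peak lactation minus dry INSIG1 -0.15 and LSS -0.342, and for the deer minus cattle lactation difference LSS -0.286. Median centring turned FDPS to 0.252 in deer minus cattle and SREBF2 to 0.214 in HF minus PR in the dry period, to 0.0546 over both states and to 0.0729 in PR. The mean of all probes of a gene turned FDPS to 0.0743 and SREBF2 to -0.501 in deer minus cattle. The Cy5 channel alone turned INSIG1 to -0.0428 in deer and SREBF2 to -0.0386 in the deer minus cattle lactation difference. LSS was -0.0694 in deer without background subtraction, INSIG1 -0.124 in HF with the processed ratio, and HMGCS1 0.0356 in the HF minus PR lactation difference without PR dry replicate 1 and HF lactation replicate 2. The cause of these changes was not tested. In the Cy3 reference channel alone, SQLE differed by 0.246 between deer and cattle arrays (limma adjusted p = 0.0228), and INSIG1 by 0.666 for HF minus PR in the dry period (limma adjusted p = 0.294) and 0.698 for PR peak lactation minus dry (limma adjusted p = 0.345). With 4 arrays a group, 44 of 100 changes of 0.5 log2 units were called in simulated data for the breeds in the dry period. Those data held no slide or array effects, which the real arrays can carry.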
